A study of Mus musculus with 12 samples.

Results

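The endocytic receptor machinery of the proximal tubule was followed through 8 genes of the 28478 gene names on the array: Lrp2, Cubn, Amn, Dab2, Clcn5, Clcn3, Clcn4 and Ocrl. They were taken by gene name, which found 7 of them, and Clcn4, which the array calls Clcn4-2, was found through its transcript accession. The 8 genes were read by 19 probes, and each probe is described on its own. Of these, 16 were tested, since the scanner software called them well above background on 4 or more of the 12 arrays. The other 3 probes (2 of Clcn3 and 1 of Ocrl) did not stand above background on any array and are not described further. The study sorted mouse kidney tubules with a large-particle flow sorter (COPAS) into EGFP+ tubules, which the design text calls distal convoluted tubules (DCT), a total fraction called ALL, and EGFP- tubules. Each of 4 mice gave all 3 fractions, and mice 1 and 3 were female and mice 2 and 4 male. The strain, the age and the promoter that drives EGFP are not stated in the labels.

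Cells of the proximal tubule recover filtered proteins, hormones and vitamin carriers by endocytosis. Megalin, encoded by Lrp2, and cubilin, encoded by Cubn, are the receptors. Amnionless, encoded by Amn, anchors cubilin in the membrane, and the adaptor DAB2 links megalin to the clathrin coat. Clcn5 encodes ClC-5, a chloride and proton exchanger of endosomes that is mutated in Dent disease in humans. Clcn3 and Clcn4 encode related exchangers of endosomes, and Ocrl encodes an inositol phosphatase of the endosomal membrane that is mutated in Lowe syndrome.

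The array probes that read these genes are 60 bases long and are shown 5′ to 3′ for 6 of the 19, because they are what the signal of each gene was measured on. The set holds the Lrp2, Amn and Dab2 probes whose match in the mm8 genome is split over more than the 60 bases of the probe, and 1 probe each for 2 of the exchangers. They lie at chr2:69237574-69238311 and chr2:69308666-69308811 (Lrp2, minus strand), chr12:111723692-111723840 (Amn, plus strand), chr15:6371412-6371855 (Dab2, plus strand), chr8:63815017-63815076 (Clcn3, minus strand) and chr7:6891796-6891855 (Clcn4, minus strand). No annotation of mm8 was used, so exons are not named.
Lrp2 A_52_P460882: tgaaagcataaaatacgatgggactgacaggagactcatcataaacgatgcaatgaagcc
Lrp2 A_51_P174921: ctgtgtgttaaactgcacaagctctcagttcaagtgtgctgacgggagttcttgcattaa
Amn A_51_P343350: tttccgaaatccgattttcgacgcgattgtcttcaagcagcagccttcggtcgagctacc
Dab2 A_52_P17534: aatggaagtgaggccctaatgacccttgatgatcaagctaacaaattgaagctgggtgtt
Clcn3 A_52_P117375: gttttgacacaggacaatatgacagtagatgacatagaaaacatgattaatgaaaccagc
Clcn4 A_52_P85200: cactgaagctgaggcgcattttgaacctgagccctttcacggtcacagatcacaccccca
The share of G and C in these 6 probes ran from 35% in the Clcn3 probe to 55.0% in the Clcn4 probe.

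The 250 bases before the transcription start are given for Lrp2, Cubn and Amn, which were low in EGFP+ tubules together, and for Ocrl, which was higher there. They come from the RefSeq table of the GRCm38.p6 build, a later build than that of the probes, and lie at chr2:69586030-69586279 (minus strand), chr2:13491877-13492126 (minus strand), chr12:111270846-111271095 (plus strand) and chrX:47912206-47912455 (plus strand). All 8 genes were in that table, with 12 start sites. Capitals mark the letters CAAAGNNCA, a core of sites bound by HNF4 factors, found on either strand. This motif and the letters GTTAAT, part of the sites bound by HNF1 factors, were chosen after the sequences had been seen. Both were searched in the same 250 bases, and no start site of the 8 genes held both.
Lrp2 promoter: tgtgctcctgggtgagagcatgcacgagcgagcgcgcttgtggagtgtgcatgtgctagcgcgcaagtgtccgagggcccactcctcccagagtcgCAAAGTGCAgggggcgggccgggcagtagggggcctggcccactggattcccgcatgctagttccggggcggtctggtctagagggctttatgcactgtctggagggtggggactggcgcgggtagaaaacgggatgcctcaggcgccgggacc
Cubn promoter: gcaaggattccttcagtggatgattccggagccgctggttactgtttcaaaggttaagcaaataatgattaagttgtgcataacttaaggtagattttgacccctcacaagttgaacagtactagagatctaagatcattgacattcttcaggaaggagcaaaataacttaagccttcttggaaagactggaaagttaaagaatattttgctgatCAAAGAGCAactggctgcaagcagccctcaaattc
Amn promoter: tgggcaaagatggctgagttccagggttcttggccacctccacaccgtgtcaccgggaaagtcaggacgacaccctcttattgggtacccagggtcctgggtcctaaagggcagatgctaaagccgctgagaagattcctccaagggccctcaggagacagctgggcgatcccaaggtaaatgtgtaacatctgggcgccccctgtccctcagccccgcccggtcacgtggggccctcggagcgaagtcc
Ocrl promoter: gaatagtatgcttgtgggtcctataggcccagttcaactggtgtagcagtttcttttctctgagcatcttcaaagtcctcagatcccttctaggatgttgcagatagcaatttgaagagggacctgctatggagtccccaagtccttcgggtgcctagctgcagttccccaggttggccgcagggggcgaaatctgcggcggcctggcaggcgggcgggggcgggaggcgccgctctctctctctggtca
The HNF4 core lay 154 to 146 bases before the Lrp2 start and 35 to 27 bases before the Cubn start, and 1 of the 2 Clcn4 starts held it on the other strand. It was found in 5.49% of 32851 mouse promoters of the same length. The HNF1 letters were found before 1 of the 2 Dab2 starts and in 6.43% of all promoters. The promoters of Amn and Ocrl held neither run of letters. Dab2, which was low together with Lrp2, Cubn and Amn and whose promoters are not shown, held no HNF4 core before either start.

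Levels are log2 processed signals minus the 75th percentile of the array, so 0 is the upper quartile of that array. Probes differ in brightness for equal RNA, so levels of different genes were not ranked. The 75th percentile ran from 922 to 2270 units, 54.3% to 66.0% of probes were called well above background on an array, and at most 2 spots per array were saturated. The DCT cotransporter gene Slc12a3 was 331-fold higher in EGFP+ than in EGFP- tubules, and Slc34a1, the phosphate cotransporter gene of the proximal tubule, was 26.3-fold lower. All 19 proximal tubule markers tested were lower in EGFP+ tubules, with a median difference of -5.12. The summed linear signal of 11 of these markers, those measured on all 12 arrays, ran from 9.11 to 15.0 in EGFP+, from 173 to 230 in ALL and from 204 to 237 in EGFP- arrays. RNA was pooled from many tubules, so fewer proximal cells and less RNA per cell cannot be told apart.

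Between EGFP+ and EGFP- tubules, 12 of the 16 probes differed at an adjusted p under 0.05 (limma over all 25819 tested probes), 9 lower and 3 higher in EGFP+. Over all tested probes 56.7% differed, 23.9% lower and 32.8% higher, so the share called is not itself particular to these genes. The size of the difference set the genes apart from each other. The 8 probes of the receptors, amnionless and the adaptor were 23.7-fold to 49.6-fold lower, whereas the 5 probes of the exchangers lay between 1.46-fold lower and 1.09-fold higher, and the 3 Ocrl probes were 1.40-fold to 1.88-fold higher. The upper end of 49.6-fold is that of Lrp2 probe A_51_P174921, which passed the background call in 2 of the 4 EGFP+ samples, as did Dab2 probe A_52_P17534. With normexp background these 2 probes were 9.35-fold and 7.29-fold lower, and Lrp2 probe A_52_P460882 was 19.0-fold lower. A difference past the threshold of at least 16-fold lower was found for 8 of the 16 probes and for 4.26% of all tested probes, and with normexp background for 6 of the 16 and 1.34% of all. The median difference of all tested probes was 0.14 on the log2 scale, and 0.30 when arrays were centred on their medians.

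**Figure D1:**
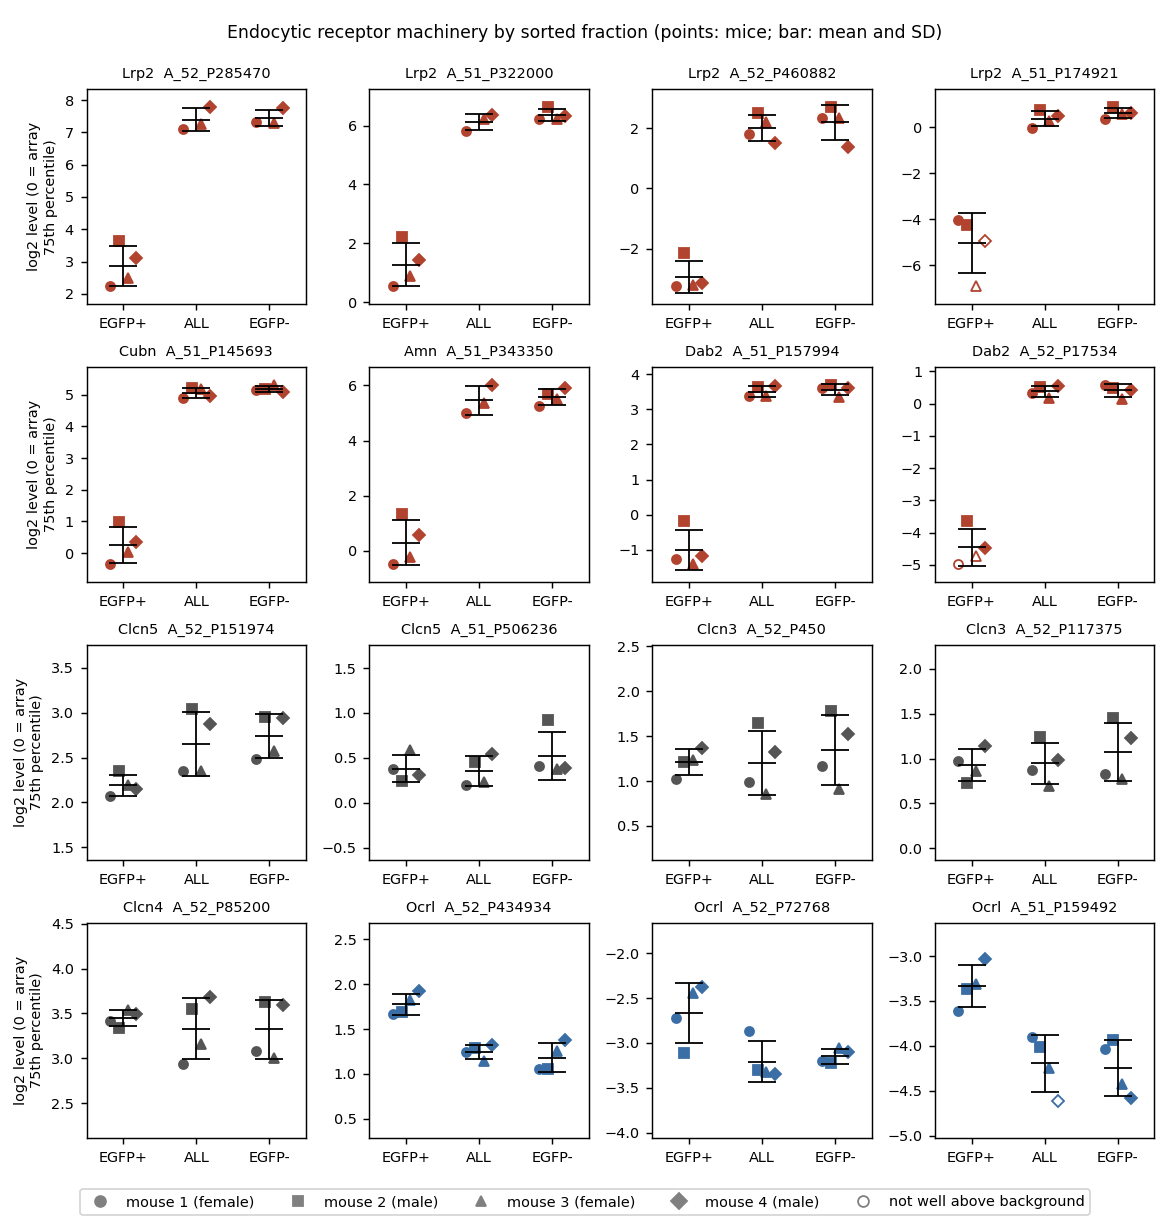
Log2 level of the 16 tested probes (y axis, 0 is the array's 75th percentile) in EGFP+, ALL and EGFP- tubules, with a point for each mouse, open where the probe was not well above background, and bars for the mean and SD over the mice. The 8 probes of Lrp2, Cubn, Amn and Dab2 sit far lower in EGFP+ tubules in every mouse with values to compare. Lrp2 A_52_P285470 has no ALL or EGFP- value for mouse 2. The exchanger probes overlap except 1 of Clcn5, and the Ocrl probes sit slightly higher in EGFP+.

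Lrp2 (megalin) was low in EGFP+ tubules by all 4 of its probes. The probe at chr2:69225348-69225407 (mm8, minus strand, A_52_P285470) had levels of 2.23, 3.63, 2.498 and 3.11 in EGFP+ tubules of mice 1 to 4, against 7.12, 7.27 and 7.79 in ALL tubules of mice 1, 3 and 4 and 7.33, 7.29 and 7.75 in EGFP- tubules of the same 3 mice. Its ALL and EGFP- spots of mouse 2 were marked as outliers by the scanner software and did not enter the fit. Every EGFP+ array lay below every other array. The difference from EGFP- was -4.59 ± 0.32 (SE, adjusted p = 1.2e-06, limma). For the probe at chr2:69226430-69226489 (A_51_P322000) the levels were 0.53, 2.21, 0.90 and 1.42 in EGFP+, 5.81, 6.23 and 6.35 in ALL (without mouse 2, whose spot was left out), and 6.22, 6.64, 6.24 and 6.34 in EGFP-. The gap was -5.09 ± 0.31 (SE, adjusted p = 1.6e-07, limma), again with no overlap. The probe at chr2:69237574-69238311 (A_52_P460882) had levels of -3.25, -2.14, -3.19 and -3.15 in EGFP+, 1.80, 2.51, 2.20 and 1.51 in ALL, and 2.34, 2.70, 2.34 and 1.38 in EGFP-, a difference of -5.12 ± 0.33 (SE, adjusted p = 1.1e-07, limma). Mouse 2 was the high point of the EGFP+ arrays. The fourth probe, at chr2:69308666-69308811 (A_51_P174921), passed the background call in 2 of the 4 EGFP+ samples, with levels of -4.04, -4.27, -6.92 and -4.94 in EGFP+, -0.04, 0.74, 0.27 and 0.46 in ALL, and 0.35, 0.88, 0.55 and 0.59 in EGFP-. Its difference of -5.63 ± 0.50 (SE, adjusted p = 1.6e-06, limma) has the widest error of the 4, and mouse 3, dim in EGFP+, is its lowest point. Without mouse 3 the difference was -5.02.

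Cubn (cubilin), the receptor that takes up the complex of vitamin B12 and intrinsic factor and also albumin, was 30.3-fold lower in EGFP+ tubules. Its probe at chr2:13194214-13194273 (minus strand, A_51_P145693) had levels of -0.35, 0.97, 0.05 and 0.35 in EGFP+, 4.89, 5.20, 5.17 and 4.96 in ALL, and 5.16, 5.18, 5.31 and 5.07 in EGFP- tubules of mice 1 to 4. The 4 EGFP+ arrays were spread over more than 1 log2 unit, with mouse 2 highest, and lay well below all others. The difference from EGFP- was -4.92 ± 0.23 (SE, adjusted p = 8.4e-09, limma).

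Amn (amnionless), the membrane partner of cubilin, was 39.0-fold lower. Its probe (A_51_P343350) had levels of -0.48, 1.33, -0.22 and 0.59 in EGFP+ tubules, 4.99, 5.36 and 6.02 in ALL tubules of mice 1, 3 and 4 (the spot of mouse 2 was left out), and 5.25, 5.69, 5.49 and 5.93 in EGFP- tubules. Mouse 2 was again the highest of the EGFP+ arrays, and no EGFP+ array reached the others. The difference from EGFP- was -5.29 ± 0.38 (SE, adjusted p = 5.4e-07, limma).

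Dab2, the clathrin adaptor, was lower by both probes. At chr15:6386639-6386698 (mm8, plus strand, A_51_P157994) the levels were -1.26, -0.19, -1.41 and -1.17 in EGFP+, 3.38, 3.62, 3.37 and 3.65 in ALL, and 3.60, 3.70, 3.34 and 3.60 in EGFP-, a difference of -4.57 ± 0.23 (SE, adjusted p = 1.5e-08, limma). At chr15:6371412-6371855 (A_52_P17534) they were -4.98, -3.64, -4.73 and -4.49 in EGFP+, 0.33, 0.51, 0.17 and 0.53 in ALL, and 0.58, 0.48, 0.14 and 0.41 in EGFP-. That difference was -4.86 ± 0.24 (SE, adjusted p = 1.5e-08, limma), with 2 of 4 EGFP+ arrays well above background. Neither Dab2 probe overlapped between EGFP+ and the other fractions. For all 8 probes of these 4 genes, as for 23.4% of all tested probes, the EGFP+ arrays lay below all EGFP- arrays.

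**Figure D2:**
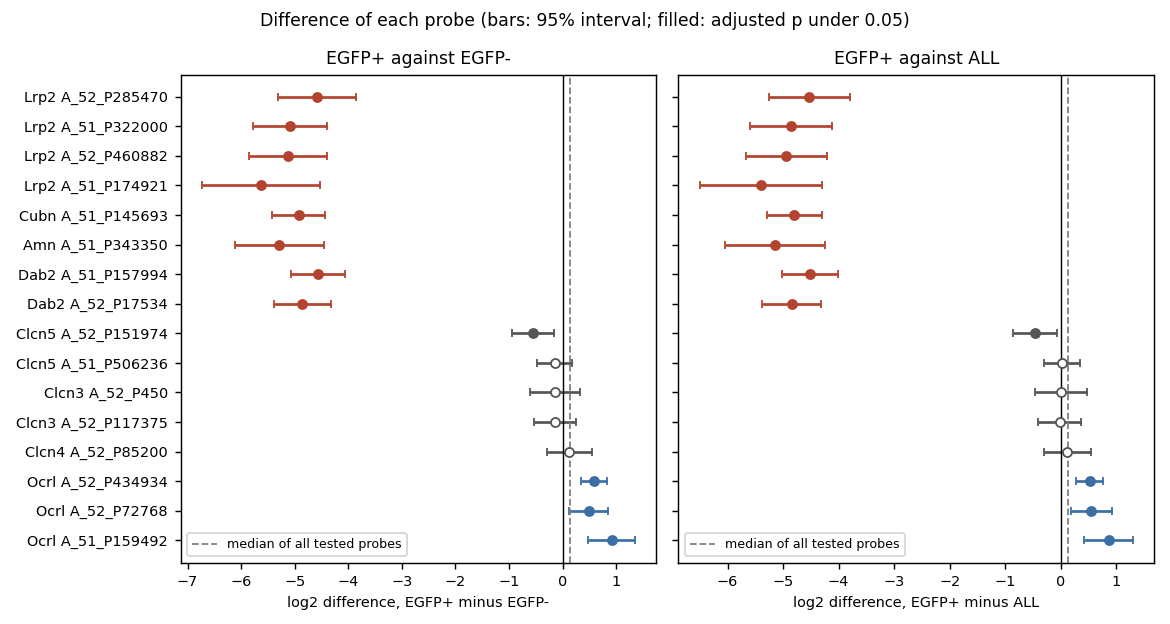
Log2 difference (x axis) of each tested probe between EGFP+ and EGFP- tubules (left) and between EGFP+ and ALL tubules (right), with 95% intervals from limma, filled where the adjusted p was under 0.05, and a dashed line at the median of all tested probes. The probes fall into a group near -5 (Lrp2, Cubn, Amn, Dab2), a group near 0 (the exchangers) and Ocrl above 0.

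The exchangers showed no such deficit. Clcn5 (ClC-5) was read by 2 probes on the X chromosome that gave unequal answers. The probe at chrX:6310783-6310842 (mm8, minus strand, A_52_P151974) had levels of 2.07, 2.35, 2.19 and 2.15 in EGFP+, 2.35, 3.04, 2.35 and 2.87 in ALL, and 2.48, 2.95, 2.57 and 2.95 in EGFP-. Its EGFP+ arrays lay below all EGFP- arrays, by -0.55 ± 0.18 (SE, adjusted p = 0.0217, limma), or 1.46-fold. This call was lost when arrays were centred on their medians (adjusted p = 0.162) and without mouse 4 (adjusted p = 0.0999), in a range of 0.00288 to 0.162 over the alternatives. The probe at chrX:6316621-6316680 (A_51_P506236) had levels of 0.37, 0.24, 0.59 and 0.31 in EGFP+, 0.20, 0.45, 0.23 and 0.54 in ALL, and 0.41, 0.92, 0.37 and 0.39 in EGFP-. These overlapped, and the difference of -0.15 ± 0.15 (SE, adjusted p = 0.427, limma) had a 95% interval of -0.47 to 0.18.

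Clcn3 and Clcn4, the exchangers closest in sequence to ClC-5, overlapped between all fractions. The Clcn3 probe at chr8:63803576-63803635 (minus strand, A_52_P450) had levels of 1.03, 1.22, 1.23 and 1.37 in EGFP+, 0.99, 1.65, 0.86 and 1.32 in ALL, and 1.17, 1.78, 0.91 and 1.53 in EGFP-, a difference from EGFP- of -0.14 ± 0.21 (SE, adjusted p = 0.610, limma; 95% interval -0.60 to 0.33). The Clcn3 probe A_52_P117375 had levels of 0.98, 0.73, 0.87 and 1.15 in EGFP+, 0.87, 1.24, 0.69 and 0.98 in ALL, and 0.83, 1.45, 0.77 and 1.23 in EGFP-, a difference of -0.14 ± 0.18 (SE, adjusted p = 0.522, limma; 95% interval -0.53 to 0.25). For both probes mouse 2 was the highest ALL and EGFP- array. The Clcn4 probe (A_52_P85200) had levels of 3.42, 3.33, 3.54 and 3.49 in EGFP+, 2.94, 3.54, 3.16 and 3.68 in ALL, and 3.08, 3.62, 3.001 and 3.59 in EGFP-, a difference of 0.12 ± 0.19 (SE, adjusted p = 0.606, limma; 95% interval -0.30 to 0.55). The intervals of these 4 exchanger probes that missed the threshold leave room for a change of up to 1.52-fold lower or 1.46-fold higher.

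Ocrl, the phosphatase, was the gene of the 8 that was higher in EGFP+ tubules. Its probe at chrX:44210308-44210367 (mm8, plus strand, A_52_P434934) had levels of 1.66, 1.69, 1.82 and 1.92 in EGFP+, 1.25, 1.28, 1.14 and 1.32 in ALL, and 1.05, 1.05, 1.25 and 1.37 in EGFP-. All EGFP+ arrays lay above all others, by 0.59 ± 0.11 over EGFP- (SE, adjusted p = 7.0e-04, limma), or 1.51-fold, and within each mouse the ratio was between 146% and 156%. The probe at chrX:44200985-44201043 (A_51_P159492) had levels of -3.61, -3.37, -3.31 and -3.04 in EGFP+, -3.90, -4.01, -4.24 and -4.62 in ALL (mouse 4 not well above background), and -4.03, -3.93, -4.43 and -4.59 in EGFP-. It too was above in every EGFP+ array, by 0.91 ± 0.20 (SE, adjusted p = 0.00199, limma). The probe at chrX:44159782-44159841 (A_52_P72768) had levels of -2.72, -3.11, -2.44 and -2.38 in EGFP+, -2.87, -3.30, -3.32 and -3.34 in ALL, and -3.20, -3.23, -3.05 and -3.10 in EGFP-. These overlapped, since mouse 2 in EGFP+ lay among the EGFP- arrays. The difference of 0.48 ± 0.17 (SE, adjusted p = 0.0288, limma) lost its call when mouse 1 (adjusted p = 0.0724), 3 (0.120) or 4 (0.115) was left out, as it did with normexp background (0.0541) or with no filter on dim probes (0.0575), in a range of 0.00670 to 0.120. For 2 of the 3 Ocrl probes, and for 31.1% of all tested probes, the EGFP+ arrays lay above all EGFP- arrays.

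EGFP+ tubules were also set against the total fraction, which contains them. In that comparison 12 of the 16 probes differed (limma, adjusted p under 0.05), the same 9 lower and 3 higher, against 54% of all tested probes (22.9% lower and 31.1% higher). Of the calls over all probes 57.6% were higher, and 67.7% when arrays were centred on their medians. The probes of Lrp2, Cubn, Amn and Dab2 were 22.8-fold to 42.2-fold lower than in ALL, and those of Ocrl 1.44-fold to 1.82-fold higher. With normexp background, Lrp2 A_51_P174921 was 7.92-fold, Dab2 A_52_P17534 7.05-fold and Lrp2 A_52_P460882 15.5-fold lower than in ALL. Without mouse 3, Lrp2 A_51_P174921 differed from ALL by -4.80. The Clcn5 probe A_52_P151974 differed by -0.46 ± 0.18 (SE, adjusted p = 0.0471, limma), and that call was lost in 9 of 14 alternatives, with adjusted p-values of 0.00741 to 0.339. With normexp background, the Ocrl probes A_51_P159492 and A_52_P72768 did not differ from ALL past the threshold (adjusted p = 0.507 and 0.557, limma). The call of A_52_P72768 was also lost without mouse 3 (adjusted p = 0.130) or mouse 4 (0.117), in a range of 0.00317 to 0.557. Both comparisons share the EGFP+ arrays.

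Between ALL and EGFP- tubules 0 of the 16 probes differed (limma, smallest adjusted p 0.99997, and 0 at an unadjusted p under 0.05), against 1.08% of all tested probes. The differences ran from -0.23 (Lrp2 probe A_51_P174921, 95% interval -1.33 to 0.86) to 0.07 (Ocrl probe A_52_P434934, 95% interval -0.18 to 0.31).

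Within single mice, the receptor probes were low in EGFP+ tubules to a degree that varied between animals. Cubn in EGFP+ tubules stood at 2.20%, 5.41%, 2.61% and 3.80% of its EGFP- signal in mice 1 to 4. Amn stood at 1.88%, 4.86%, 1.90% and 2.48%, and the Dab2 probe A_51_P157994 at 3.45%, 6.77%, 3.70% and 3.68%. For these probes mouse 2 kept the most. The Lrp2 probes did not share one order: A_51_P322000 was highest in mouse 2 (4.64%), A_52_P460882 in mouse 4 (4.33%, against 3.48% in mouse 2) and A_51_P174921 in mouse 1 (4.76%, against 2.83% in mouse 2). The Lrp2 probe A_52_P285470 has no value for mouse 2 and stood at 2.91%, 3.61% and 4.02% in mice 1, 3 and 4. The mean level of 15 proximal tubule markers (those with a value in both fractions of every mouse) was 2.87%, 5.30%, 2.70% and 3.57% in the same mice, so it was highest in mouse 2 as well. The part of these markers' cells in the receptor values was not tested.

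**Figure D3:**
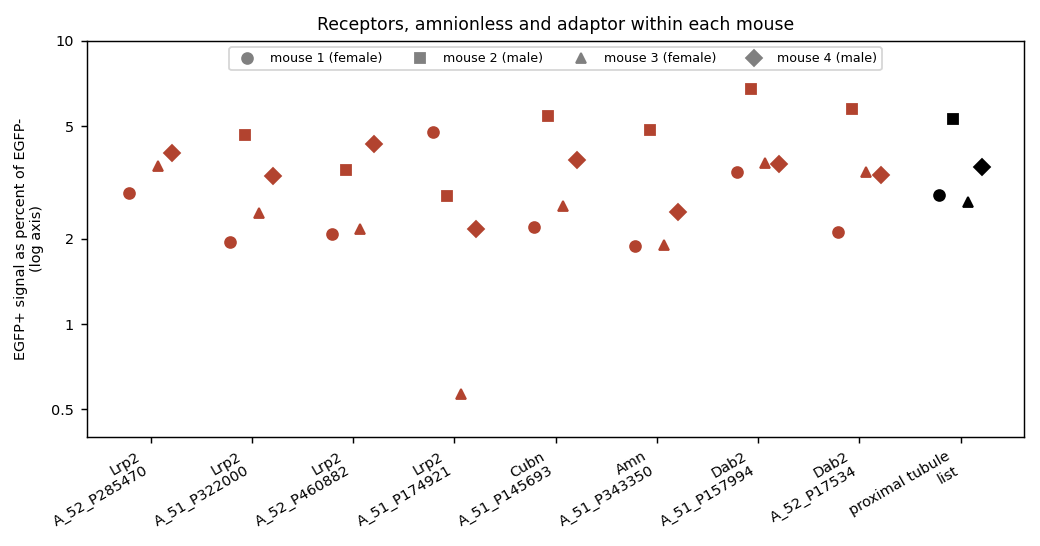
EGFP+ signal as a percentage of the EGFP- signal of the same mouse (y axis, log scale) for the 8 probes of Lrp2, Cubn, Amn and Dab2, in red, and for the mean level of 15 proximal tubule markers, in black, with a point for each mouse. Cubn, Amn, Dab2 and the markers were highest in mouse 2, at 4.86% to 6.77%, whereas of the 3 Lrp2 probes with a value for mouse 2, A_52_P460882 was highest in mouse 4 (4.33%) and A_51_P174921 in mouse 1 (4.76%).

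The level of each probe was also taken relative to the mean of the same 15 markers on the same array, and EGFP+ arrays were compared with EGFP- arrays by an exact two-sided permutation test, whose smallest p is 0.0286. The test shuffled arrays without regard to the mouse, although each mouse gave both fractions, so its p-values ignore this pairing. The receptor and adaptor probes differed by -0.79 to 0.28 relative to the markers. Cubn differed by -0.08 (exact p = 0.714), the Dab2 probes by 0.28 (exact p = 0.143) and -0.02 (exact p = 1), and the Lrp2 probes by 0.21, -0.25, -0.28 and -0.79 (exact p of 0.0571 to 0.400). Amn differed by -0.44 (exact p = 0.0286), with its 4 EGFP+ arrays all below its EGFP- arrays. The markers were picked as proximal genes and all were lower in EGFP+ tubules, so a probe with an unchanged level must rise relative to them. For the exchangers and Ocrl the outcome was thus set in advance, and their values only restate the main comparison. The 5 exchanger probes were 4.30 to 4.97 log2 units higher relative to the markers in EGFP+ than in EGFP- tubules. The 3 Ocrl probes were 5.33 to 5.76 higher, and each of these probes was at the smallest p the test allows. Adjusted over the 16 probes, that p is 0.0508, so none passed the threshold of 0.05. With normexp background, the 2 probes that passed the background call in 2 of the 4 EGFP+ samples turned sign, to 1.42 for Lrp2 A_51_P174921 and 1.78 for Dab2 A_52_P17534. In a limma fit of the same relative levels, added after the data had been seen, 8 of the 16 probes differed, all of them exchanger and Ocrl probes, against 96% of all tested probes. That fit took one spread for all probes, because the spread of the marker mean enters every probe, so its p-values are not given.

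The arrays lay on 3 slides, each with more than 1 fraction. Slide 1 held EGFP+ arrays of mice 1 and 2 and the EGFP- array of mouse 1, slide 2 the EGFP+ array of mouse 3, a female, and the EGFP- array of mouse 2, a male, and slide 3 the EGFP+ array of mouse 4 and EGFP- arrays of mice 3 and 4, so these contrasts cross mice and sexes. The receptor and adaptor probes differed between EGFP+ and EGFP- by -5.03 to -4.32 within slide 1, by -7.79 to -5.11 within slide 2 (without Lrp2 A_52_P285470, which has no value there) and by -5.51 to -4.41 within slide 3. Ocrl was higher within every slide, by 0.29 to 0.62, 0.62 to 0.79 and 0.61 to 1.47. The exchangers lay between -0.75 and 0.30 within slides. With slide as a block, 12 of the 16 probes passed the threshold against EGFP- and 11 against ALL, where Clcn5 A_52_P151974 did not (adjusted p = 0.0860, limma).

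Between males and females, 0 of the 16 probes differed past the threshold (limma on 1 average per mouse over its 3 fractions, 2 male and 2 female mice), against 1.06% of all tested probes. For Lrp2 A_52_P285470 and A_51_P322000 and for Amn, the missing values of mouse 2 left 1 male, mouse 4, against 2 females. At an unadjusted p under 0.05 there were 5 of the 16, beside 19.3% of all tested probes. Clcn3 A_52_P450 had the smallest adjusted p (0.197, limma), with a difference of 0.45 ± 0.13 (SE). Clcn5 A_52_P151974 and Clcn4 were the others with 2 males. Lrp2 A_52_P285470 (0.59) and Amn (0.78) rested on the 1 male. The difference between EGFP+ and EGFP- tubules itself did not depend on sex past the threshold for any of the 16 probes, nor for any other probe (0%), with 4 of the 16 and 11.4% of all probes at an unadjusted p under 0.05. These 4 were Lrp2 A_52_P460882 (0.87 ± 0.24), Cubn (0.92 ± 0.28), Lrp2 A_51_P322000 (0.84 ± 0.29) and Clcn4 (SE, adjusted p of 0.365 to 0.421, limma). The fitted sex dependence of the 8 receptor and adaptor probes was between 0.31 and 0.92, where a positive value is a smaller fitted deficit in males and none passed the threshold, and the lowest value, that of Lrp2 A_52_P285470, rests on 1 male. The mean marker level stood at 5.30% and 3.57% of EGFP- in the males and 2.87% and 2.70% in the females, and its part in these values was not tested. For Clcn4, in EGFP- tubules males stood at 3.62 and 3.59 and females at 3.08 and 3.001, while in EGFP+ tubules males stood at 3.33 and 3.49 and females at 3.42 and 3.54. The sex dependence of that difference was -0.64 ± 0.23 (SE, adjusted p = 0.421, limma).

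For the brightest tested probe of each gene, the 3 named genes with the most similar levels were found by Pearson's r over the arrays on which it was measured. These values describe a split between EGFP+ arrays and the others that is shared by the arrays themselves. Lrp2 was closest to G6pc, Man1a and Abcg2 (r of 0.9997, 0.9995 and 0.9995 over 10 arrays), of which G6pc encodes a gluconeogenic enzyme of the proximal tubule and is one of the markers. Cubn was close to Aadac and Acot4, Amn to Vil1 and Myo15b, and Dab2 to Lrp3, Renbp and Agtr1a, all of which were also lower in EGFP+ tubules, with differences of -5.41 to -4.65. Vil1 encodes villin of the brush border. Clcn5 was closest to Psma4, Sash1 and Nt5c3 (r = 0.984 for the first), Clcn3 to Vps50, Abhd5 and Ttc13 (r = 0.963), Clcn4 to Sil1, Jagn1 and Eapp (r = 0.981), and Ocrl to Usp48, Zfp618 and Rbm6 (r = 0.985). Between the genes themselves, over 10 to 12 arrays, r was 0.992 to 0.999 among Lrp2, Cubn, Amn and Dab2, 0.742 to 0.802 between Clcn5 and these 4, and -0.926 to -0.887 between Ocrl and these 4.

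The rest of the uptake pathway was read through 93 further genes in 6 lists, each by 1 probe. Of 89 tested, 41 were lower in EGFP+ than in EGFP- tubules and 21 higher, and 27 did not pass the test, with a median difference of -0.31 beside 0.14 for all probes. Over all tested probes 23.9% were lower and 32.8% higher, the shares to set beside the counts of each list. By their measured difference 7 were at least 16-fold lower, among them Dab1 and Ttr, dim on all EGFP+ arrays. By a raised EGFP+ signal Dab1 was 6.99-fold and Ttr 23.7-fold lower. With normexp background 3 of the 89 tested genes were at least 16-fold lower, beside 1.34% of all tested probes. There Dab1 differed by -1.01 and Ttr by -2.05, so the 6.99-fold and 23.7-fold values are not lower bounds.

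In the clathrin coat list of 21 genes, 10 fell below EGFP-, 3 were above it and 8 did not pass the test, with a median of -0.41. Dab1, the neuronal relative of Dab2, was 6.99-fold lower by the raised EGFP+ signal, since none of its 4 EGFP+ arrays was well above background. Hip1 was lower (-2.70). With normexp background Dab1 did not pass the test (-1.01, adjusted p = 0.0817, limma) and Hip1 differed by -1.68. Hip1r, and Ap2m1, which encodes a subunit of the AP-2 adaptor, were higher by 0.81 and 0.55, and Ap2m1 lost its call with normexp background (adjusted p = 0.0840, limma) and without mouse 1 (0.0827) or 3 (0.110). Among proteins that bind megalin or its adaptor, Myo6, the motor that moves endocytic vesicles, was lower (-0.75) and Gipc1 higher (0.50).

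In the early and recycling endosome list, 6 of 20 tested genes were lower and 6 higher, and 8 did not pass the test, with a median of 0.26. These counts are near the shares of all tested probes, 23.9% lower and 32.8% higher. Rab11fip3, an effector of the recycling GTPase RAB11, was lower (-3.05 ± 0.14, SE, adjusted p = 7.9e-09, limma), as was Ehd1 (-1.68). Rab5b, an early endosomal GTPase, was higher by 0.97. Among genes whose proteins bind OCRL, Fam109a was higher by 0.86 and Appl1 by 0.57, and Inpp5b, its close relative, was lower (-1.57). In the late endosome and lysosome list, 8 of 17 genes were lower and 3 higher, and 6 did not pass the test, with a median of -0.39. The lysosomal proteases Ctsh (-3.44) and Lgmn (-1.98) were lowest, and Vps33b (0.85) and Ctsd (0.56) highest.

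Of 8 genes of the CLC family and its subunits, 3 were higher and 3 lower, and 2 did not pass the test. Among the higher ones was Bsnd (3.37), which encodes the channel subunit barttin. Clcn1 (-1.90), well above background on 2 of 4 EGFP+ arrays, and Clcn7 (-0.73), the lysosomal exchanger, were lower, and Ostm1, the subunit of ClC-7, was at 0.08 (adjusted p = 0.738, limma). The call of Clcn1 was lost with normexp background (-0.09, adjusted p = 0.883, limma), and that of Clcn7 with median centring (adjusted p = 0.0836) and without mouse 2 (0.0690) or 4 (0.0785). In the list of the lipoprotein receptor family, which megalin belongs to, 5 of 12 tested genes were lower and 4 higher, and 3 did not pass the test. Lrp4 (-5.59) and Lrp3 (-4.65) were lower, each well above background on 1 of 4 EGFP+ arrays, and with normexp background they differed by -3.12 and -2.21. Sorl1 (1.90) was higher. Lrpap1, the chaperone of megalin, was lower (-2.47 ± 0.30, SE, adjusted p = 6.6e-05, limma).

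Among proximal uptake partners and genes of vitamin handling, 9 of 11 tested genes were lower and the other 2 higher, with a median of -1.66. Folr1, a folate receptor, was 41.7-fold lower. Ttr, the thyroid hormone carrier, was 23.7-fold lower by the raised EGFP+ signal and differed by -2.05 with normexp background. Slc9a3, the apical sodium and proton exchanger, was lower (-2.61), as was Fcgrt, the receptor that recycles albumin and immunoglobulin G (-1.40). The receptors for transcobalamin, Cd320 (0.77), and for vitamin D, Vdr (1.22), were higher. The markers of podocytes (7 of 7), principal cells (5 of 5) and endothelium (7 of 8) were lower in EGFP+ tubules as well. So were those of smooth muscle and stroma (4 of 5) and leukocytes (4 of 7), and the rest did not pass the test. Those of the thick ascending limb, the segment before the DCT, went mostly the other way: 5 of 6 were higher, with a median of 1.72, among them Umod (1.93), and Cldn10 was lower (-5.05). Of 8 intercalated cell markers 3 were lower, 1 was higher and 4 did not pass the test, with a median of -0.39. The part of each cell type in the pathway lists was not tested.

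**Figure D4:**
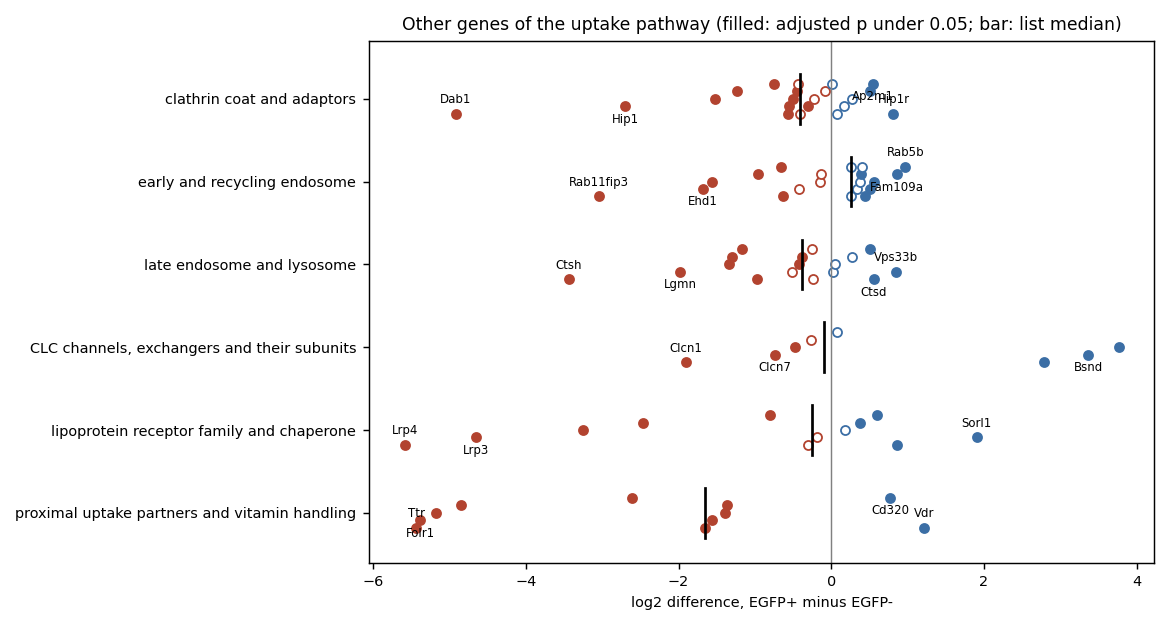
Log2 difference between EGFP+ and EGFP- tubules (x axis) of the 89 tested genes in 6 lists of the uptake pathway, with a point for each gene, filled where the adjusted p was under 0.05, and a bar at the list's median. Lrp4, Ttr, Folr1, Dab1 and Lrp3 lie near -5 (with normexp background, not drawn, Lrp4, Ttr, Dab1 and Lrp3 lay between -3.12 and -1.01), and the subunit gene Bsnd above 3; Dab1 and Ttr, dim on all EGFP+ arrays, are drawn at their measured values.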

How the data were processed

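Per the labels, total RNA of each sorted fraction was extracted, amplified by a linear method and labelled with the dye Cy3. The arrays were of Agilent design 014868, with probes placed in mm8, and were read by Feature Extraction 9.5.3.1, per the file headers. The scanner intensity that was deposited is the software's processed signal, already background-corrected, with mean signals and local backgrounds beside it. A deposited table of the authors' intensities was used only to check labels: each of its 12 columns matched another fraction of the same mouse, so it gave no values.

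Spots marked as outliers and control spots were left out, spots of a probe averaged (41174 probes), and the log2 signal scaled to each array's 75th percentile. Probes called well above background on 4 or more of the 12 arrays, with 8 or more values, were tested with limma 3.58.1 in R 4.3.3, 1 coefficient per fraction, with Benjamini-Hochberg adjustment and a threshold of 0.05. The fit was tested on simulated data. In a simulated EGFP+ against EGFP- comparison of 25310 probes, with 200 changed, it recovered 98.5% of probes changed by 4 log2 units, 47% of those changed by 1 and 0% of those changed by 0.5. In the data 56.7% of tested probes were called, so the adjusted threshold was far less strict than in the simulation. The recovered shares therefore do not carry over to these data. Errors are SE from the fit. The fits between fractions treated the 12 arrays as independent, although they came from 4 mice, and precision is limited by the number of mice.

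The members, lists and tests were chosen with earlier results of these data known. All member probes are named. Of each pathway list, the 2 genes with the largest differences past the threshold in each direction and those known to bind a member are named, except some genes that are not reported here. Fam109b, Rbp4, Lrp1b and Lrp8 were not tested. Samples with the same mouse number come from the same animal. In all 12 same-mouse pairs their deviations from the fraction means correlated above 0.1 (0.23 to 0.81). So did those of 9 of 36 pairs from different mice, whose correlations ran from -0.68 to 0.59. Fractions were compared without the mouse as a block, which was an alternative for the limma fits but not for the exact test. Alternatives were normexp background (offset 50), quantile normalization, median centring, other filters, 1 probe per gene, mouse and slide blocks, the 2 fractions alone, an intensity trend and leaving out each mouse. Sequences come from the scanner files and from RefSeq. Figures were drawn with matplotlib.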

Additional observations from a re-analysis of the deposited data

Results flagged for a closer look

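In 44 groups of 4 arrays (probe by fraction), 3 single arrays stood apart from the other 3 by Dixon's test, and chance flags about 1 in 20 groups. The Lrp2 probe A_52_P460882 stood at -2.14 in EGFP+ tubules of mouse 2, with the other EGFP+ arrays between -3.25 and -3.15. The Ocrl probe A_52_P72768 stood at -2.87 in ALL tubules of mouse 1, with the others between -3.34 and -3.30. The Clcn5 probe A_51_P506236 stood at 0.92 in EGFP- tubules of mouse 2, with the others between 0.37 and 0.41. Mouse 2 also had the highest proximal tubule signal in EGFP+ tubules (5.30% of its EGFP- level), and the part of that in the values of mouse 2 was not tested.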

How the results depend on the processing

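Of 1037 values for single probes under alternatives, 998 kept their direction and side of the threshold, or were never called, 20 lost the threshold, 17 gained it and 2 turned sign. The 8 probes of Lrp2, Cubn, Amn and Dab2 and the Ocrl probe A_52_P434934 passed in both EGFP+ comparisons under every alternative run on them. With 1 probe per gene, 6 of 8 genes passed in each EGFP+ comparison, in place of 12 of 16 probes, because fewer probes were tested. Leaving out 1 mouse left 10 to 12 probes past the threshold against EGFP- and 10 to 11 against ALL, and 0 in every case for ALL against EGFP-, for sex and for the sex dependence. With the mouse as a replicate block 12 of 16 probes passed in both EGFP+ comparisons, and 16627 of all probes against EGFP-; this pairing changed no call of a member.

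Relative to the proximal tubule markers, 0 of 16 probes passed after adjustment over the 16 exact tests, since 9 at the smallest p are too few for the threshold. With normexp background 11 passed, and 8 in the limma fit added after the data had been seen. For the exchanger and Ocrl probes among them, passing only restates that the markers were lower in EGFP+ tubules. Under normexp the difference of Lrp2 A_51_P174921 turned to 1.42 and that of Dab2 A_52_P17534 to 1.78; the cause was not tested. Over the alternatives, all probes past the threshold numbered 10247 to 16627 against EGFP-, 7859 to 16077 against ALL, 103 to 398 for ALL against EGFP-, 27 to 4783 for sex and 0 to 69 for the sex dependence. Of 415 values of the 30 named list genes, recomputed after the data had been seen, 407 kept their direction and side of the threshold and 8 lost the threshold, none turning sign. Signal near background limits the size of the differences of the probes named as dim in EGFP+ tubules (Lrp2 A_51_P174921, Dab2 A_52_P17534, Dab1, Ttr, Lrp3, Lrp4 and Clcn1), which were smaller with normexp background.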
